A study of Mus musculus with 143 samples.

Results

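The transcripts of 9 mouse serine protease inhibitor (serpin) genes, 6 of the Serpina3 cluster (Serpina3f, Serpina3g, Serpina3h, Serpina3i, Serpina3m and Serpina3n) and 3 of the Serpinb cluster (Serpinb9, Serpinb9b and Serpinb6b), were followed through subcutaneous tumours of 11 mouse models. The genes were found by symbol through their Ensembl identifiers, and all 9 were among the 54232 genes of the deposited table. The tumours were treated with the anti-PD-1 antibody muDX400 (5 libraries per model), with the mIgG1 isotype antibody (5 per model), or were untreated baseline tumours (3 per model). The 9 genes were chosen by name with earlier results of these same FPKM values known, so all their differences between arms and models are given as a description.

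Serpins inhibit proteases by offering a reactive loop as bait; the cut serpin folds around the protease and traps it. Cytotoxic lymphocytes kill by releasing perforin and granzymes, which are serine proteases. Mouse Serpinb9 (SPI6) inhibits granzyme B, Serpinb9b inhibits granzyme M and Serpinb6b inhibits granzyme A. These clade B serpins stay inside the cell and are known for protecting cells, tumour cells included, from granzymes. Serpina3g (Spi2A) also stays inside the cell and inhibits lysosomal cathepsins. Serpina3n is secreted in the acute phase response, is a mouse counterpart of human antichymotrypsin and inhibits granzyme B. Interferon-gamma signals reach GAS elements in promoters, interferon signals also reach ISRE elements, and NF-kappaB binds kappaB sites.

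The Serpina3 members lay in 1 cluster on the forward strand of chromosome 12 and the Serpinb members in 1 cluster on the forward strand of chromosome 13 (GRCm38, GENCODE M21 annotation). Serpina3f (ENSMUSG00000066363) spanned chr12:104214544-104221129, Serpina3g (ENSMUSG00000041481) chr12:104236245-104241939, and Serpina3h (ENSMUSG00000041449), annotated as a transcribed unprocessed pseudogene, chr12:104247905-104253669. Serpina3i (ENSMUSG00000079014) spanned chr12:104263122-104269372, Serpina3m (ENSMUSG00000079012) chr12:104338486-104394257 and Serpina3n (ENSMUSG00000021091) chr12:104406729-104414329. Serpinb6b (ENSMUSG00000042842) spanned chr13:32965209-32979067, Serpinb9 (ENSMUSG00000045827) chr13:33003250-33017957 and Serpinb9b (ENSMUSG00000021403) chr13:33027416-33041884.

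RefSeq gave start sites for 7 of the 9 members (GRCm38.p6). The 250 bases before the start of 5 of them are printed 5′ to 3′ on the forward strand, because these are the members with a motif match: Serpina3f (chr12:104214294-104214543), Serpina3g (chr12:104235897-104236146), Serpina3i (chr12:104262872-104263121), Serpina3n (chr12:104406458-104406707) and Serpinb9 (chr13:33004291-33004540). Capitals mark matches to TTCNNNGAA (the GAS pattern), to GGG, any 2 bases and TTTCC (a kappaB-like pattern) or to GAAA, any 2 bases and GAAA (the ISRE core), each searched on both strands. The patterns were chosen after the sequences had been read, and no matches overlapped.
Serpina3f: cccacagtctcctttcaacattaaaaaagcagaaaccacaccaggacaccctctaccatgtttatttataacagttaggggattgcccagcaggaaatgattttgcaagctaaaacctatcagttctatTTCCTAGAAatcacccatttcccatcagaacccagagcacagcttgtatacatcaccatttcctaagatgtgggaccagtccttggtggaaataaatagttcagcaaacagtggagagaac
Serpina3g: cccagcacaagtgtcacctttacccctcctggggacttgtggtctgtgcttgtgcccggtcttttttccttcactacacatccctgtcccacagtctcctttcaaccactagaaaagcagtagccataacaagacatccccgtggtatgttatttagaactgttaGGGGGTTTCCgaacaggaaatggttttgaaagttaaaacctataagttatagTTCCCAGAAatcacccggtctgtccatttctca
Serpina3i: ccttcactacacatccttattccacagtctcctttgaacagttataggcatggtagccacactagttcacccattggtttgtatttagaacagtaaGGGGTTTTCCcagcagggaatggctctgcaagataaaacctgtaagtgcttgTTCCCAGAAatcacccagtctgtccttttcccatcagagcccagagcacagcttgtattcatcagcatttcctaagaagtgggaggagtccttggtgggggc
Serpina3n: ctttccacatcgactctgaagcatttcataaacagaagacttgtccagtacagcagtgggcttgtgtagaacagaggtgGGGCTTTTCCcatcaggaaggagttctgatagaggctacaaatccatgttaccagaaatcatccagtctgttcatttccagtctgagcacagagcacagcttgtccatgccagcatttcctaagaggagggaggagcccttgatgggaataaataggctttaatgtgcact
Serpinb9: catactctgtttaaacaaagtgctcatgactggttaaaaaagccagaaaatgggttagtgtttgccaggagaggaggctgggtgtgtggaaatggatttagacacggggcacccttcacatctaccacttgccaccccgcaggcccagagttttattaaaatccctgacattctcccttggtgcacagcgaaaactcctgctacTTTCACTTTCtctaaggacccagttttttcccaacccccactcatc

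Serpina3g and Serpina3i each held a kappaB-like match and, 52 bases further on (first base to first base), a GAS match. In Serpina3g these were GGGGGTTTCC at -85 and TTCCCAGAA at -33, counted back from the RefSeq start, and in Serpina3i GGGGTTTTCC at -154 and TTCCCAGAA at -102. Serpina3f held only the GAS match (TTCCTAGAA at -121), and the bases 52 positions before it read ggggattgcc, which is not a match. Serpina3n held only the kappaB-like match (GGGCTTTTCC at -171), and the bases 52 positions after its start read cagaaatca, which is not a match. Serpinb9 held an ISRE core on the reverse strand, read as TTTCACTTTC at -46 on the forward strand, and the windows of Serpinb9b and Serpinb6b held none of the 3 patterns. Of 32851 mouse windows of the same length, 7.02% held the GAS pattern, 2.98% the ISRE core and 1.41% the kappaB-like pattern. Serpina3f had a second RefSeq start downstream, whose window (chr12:104214383-104214632) held the same GAS match. A match describes these letters and is not evidence of binding.

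Per the labels, cells were injected under the skin of the right lower flank, antibodies were given on days 11 and 15, and the tumours were taken out on day 19 (called 8 days in the labels). The labels class the models by response to PD-1 blockade: CM3, MBT2 (bladder) and MC38 (colon) as High; CT26 (colon), EMT6 (mammary), MB49 (bladder) and RENCA (renal) as Partial; and 4T1 (mammary), B16F10 (melanoma), LL2 (Lewis lung) and TC1 (transformed lung epithelium) as Resistant. Each model is 1 transplanted cell line, and the strain, age and sex of the hosts are not given in the labels. The labels do not say that replicates were separate mice, so p-values measure the spread between these libraries. Fragment depth inferred from the size of single-fragment steps in the FPKM values reached 36.2 to 49.8 M in the baseline tumours of TC1, RENCA and B16F10 (9 libraries) and 11.3 to 25.3 M in the other 134. Melanocyte markers summed to 8117 to 10370.0 FPKM in isotype libraries of B16F10 and 5357 to 7325 FPKM in those of CM3, and to at most 4.59 FPKM in isotype libraries of the other 9 models. The labels' sample numbers put the baseline tumours of 8 models into a block of their own and those of TC1 into the block of B16F10 and RENCA, so outside B16F10 and RENCA the isotype and baseline arms cannot be told apart from their blocks; what a block marks is not given. Where sums of cell type markers are given below, every marker was above 0 in each arm. In bulk tumour RNA, fewer cells of a type and less RNA per cell cannot be told apart.

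**Figure D1:**
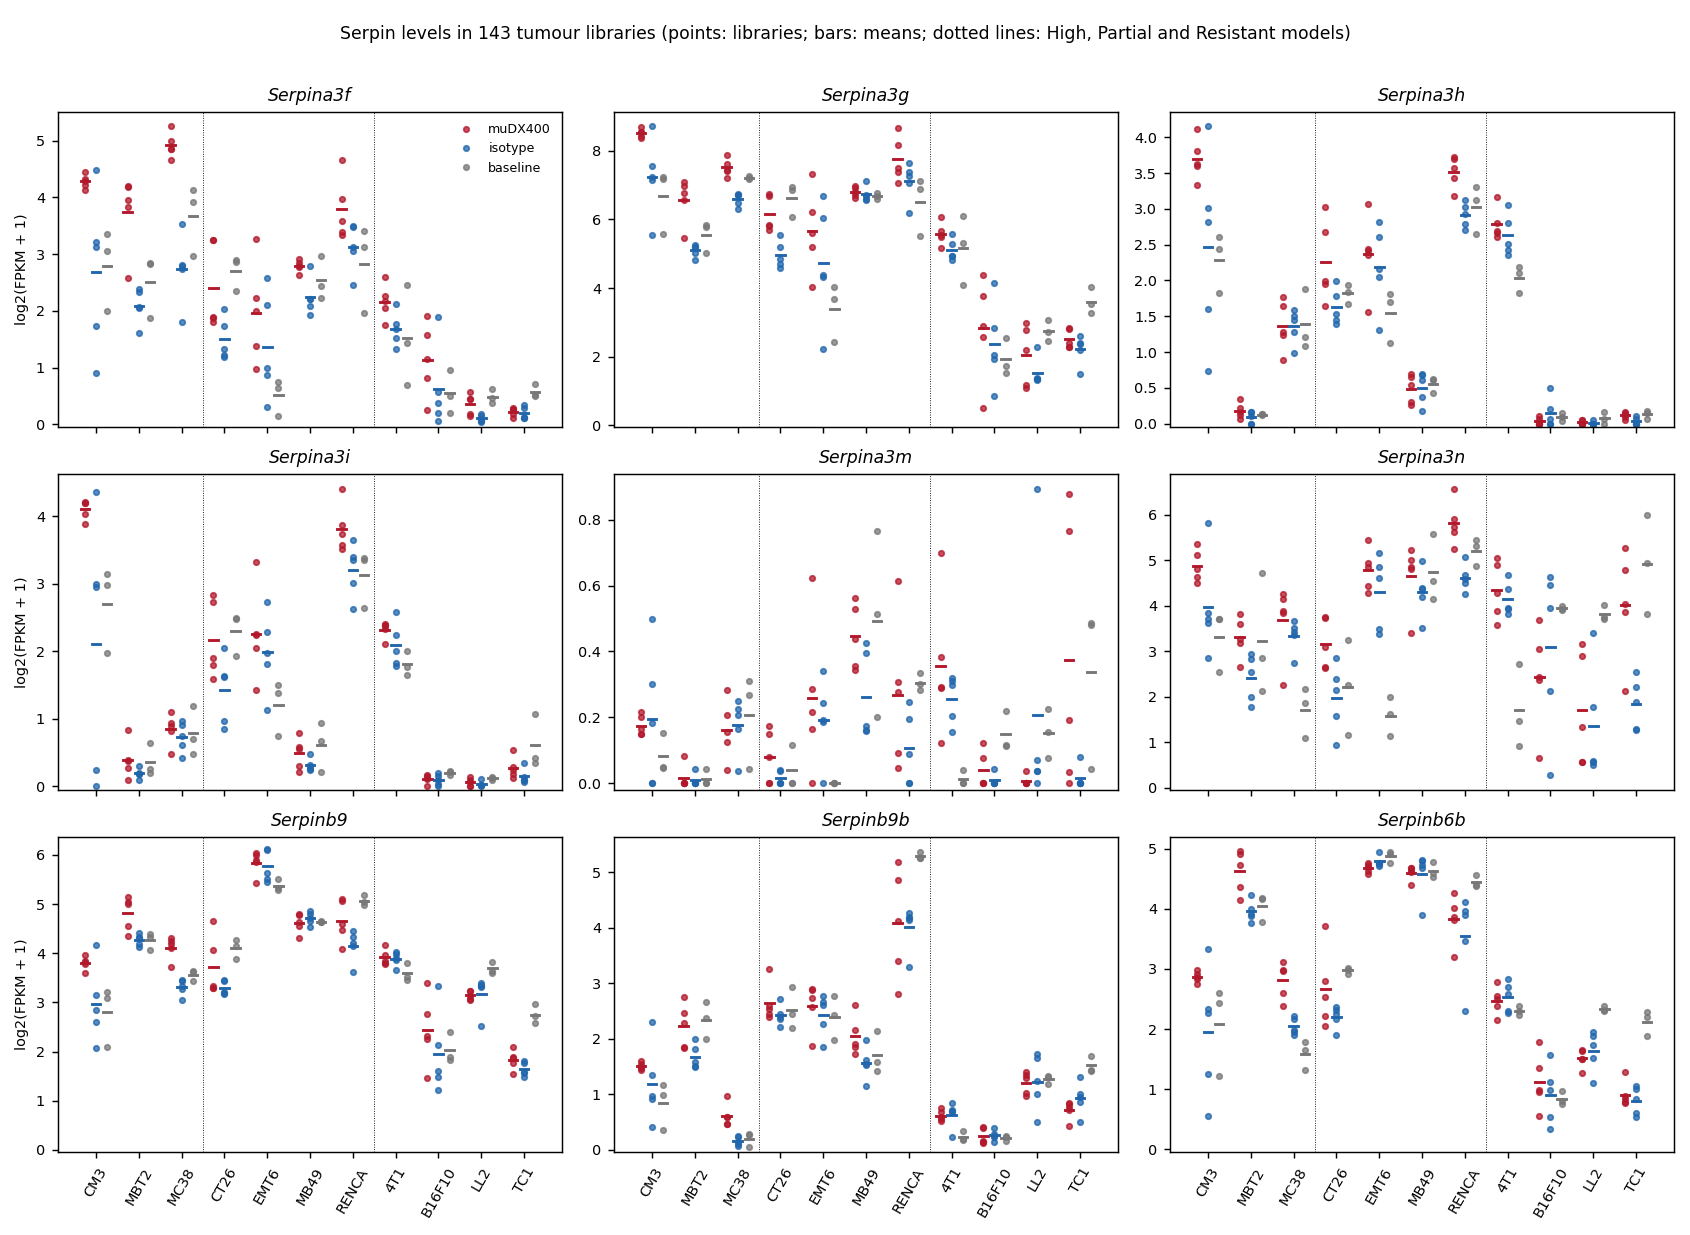
Level of each of the 9 serpins, log2(FPKM + 1), in each library (points) with the mean of each arm (bars), by tumour model; muDX400 stands left of isotype and baseline, and dotted lines separate High, Partial and Resistant models. Serpina3g reached 422.4 FPKM, while Serpina3m stayed under 1 FPKM in every library.

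The members differed far more between models than between arms (the plot of levels in every library). Differences between models made up 72.9% to 89.4% of the variance of log2(FPKM + 1) for Serpina3f, Serpina3g, Serpina3h, Serpina3i, Serpinb9, Serpinb9b and Serpinb6b, but 38.9% for Serpina3n and 27.3% for Serpina3m. Differences between arms of a model made up 34.3% for Serpina3n and 14.4% for Serpina3f. Serpinb9 was at or above 1 FPKM in every library, Serpina3g in 141, Serpina3n in 134, Serpinb6b in 126, Serpina3f in 99, Serpinb9b in 87, Serpina3h in 75 and Serpina3i in 63. Serpina3m reached 0.857 FPKM at most, was listed at 0 in 45 libraries, and passed the filter on low values in no comparison.

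Serpina3g had the highest mean FPKM of the 9 members in the isotype arm of 8 models; Serpinb9 had it in EMT6 and LL2, and Serpina3n in B16F10. Its isotype mean was 189 ± 140.4 FPKM in CM3 (SD, n = 5, as for all isotype and muDX400 means), 145 ± 47.8 in RENCA, 106 ± 18.4 in MB49 and 95.2 ± 12.2 in MC38. Neighbours within these 4 overlapped. EMT6 (41.7 ± 40.2), 4T1 (34.2 ± 8.2), MBT2 (33.4 ± 4.22) and CT26 (31.4 ± 9.37) came next. B16F10 (5.95 ± 6.37), TC1 (3.79 ± 1.23) and LL2 (2.02 ± 1.04) were lowest, so the 3 lowest models are all in the Resistant class, while the fourth Resistant model, 4T1, is not among them. The EMT6 libraries spread widely, at 65.4, 101, 19.7, 19 and 3.71 FPKM.

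Serpina3f, Serpina3h and Serpina3i were compared with Serpina3g in the same library, since FPKM is per length. Serpina3h was 17.5% ± 13.4 of Serpina3g in EMT6 isotype tumours, 15.5% ± 0.858 in 4T1, 7.14% ± 2.18 in CT26 and 5.03% ± 1.96 in RENCA (SD, n = 5). It was 2.97% ± 1.49 in CM3 and 1.67% ± 0.318 in MC38, but 0.401% ± 0.194 in MB49 and 0.196% ± 0.20 in MBT2. In MB49 and MBT2 Serpina3g itself was abundant, while Serpina3h and Serpina3i were under 1 FPKM in every library, so these shares rest on few fragments. Serpina3i, given here as FPKM and not as a share, had its highest isotype means in RENCA (8.49 ± 2.46 FPKM), CM3 (6.68 ± 7.93), 4T1 (3.34 ± 1.04) and EMT6 (3.22 ± 1.65). These genes are near copies: 15.8% of the 50-base words in Serpina3h transcripts also occur in Serpina3i, and 21.9% occur in some other gene. Between 6.90% (Serpina3n) and 19.1% (Serpina3m) of words were shared for the other Serpina3 members, and at most 2.92% for the Serpinb members, so values of Serpina3h and Serpina3i in particular can hold fragments of each other. Of the Serpina3g words 8.89% occur in Serpina3h, and Serpina3g was the more abundant gene. The values of Serpina3h, and its shares of Serpina3g, can thus also hold fragments of Serpina3g.

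**Figure D2:**
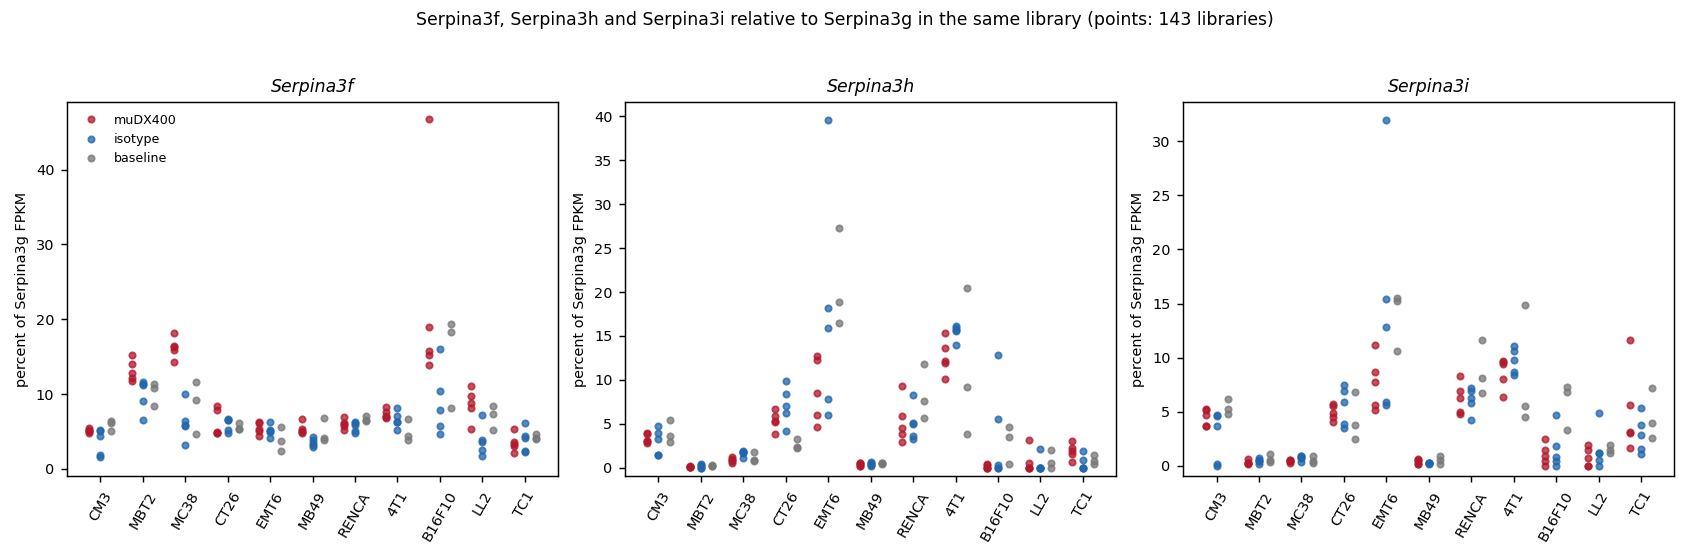
FPKM of Serpina3f, Serpina3h and Serpina3i as a percentage of the Serpina3g FPKM of the same library (points), by tumour model and arm. In MB49 and MBT2 Serpina3h and Serpina3i lie near 0%, at levels under 1 FPKM in every library, as does Serpina3i in 2 CM3 isotype libraries. Serpina3f is at 14.3% to 18.2% in MC38 muDX400 tumours against 3.2% to 10.02% in MC38 isotype tumours.

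The granzyme inhibitors had another order of models. Serpinb9 was highest in EMT6, at 54.5 ± 12.7 FPKM in isotype tumours, and MB49 followed at 25.3 ± 2.25; neither overlapped the model below it. MBT2 (18.5 ± 1.51), RENCA (17.1 ± 3.63) and 4T1 (13.8 ± 1.41) came next, and TC1 was lowest at 2.13 ± 0.301. Serpinb6b followed a like order, with 26.6 ± 1.83 FPKM in EMT6, 23.5 ± 5.44 in MB49, 14.6 ± 1.99 in MBT2, 11.8 ± 4.95 in RENCA and 0.767 ± 0.276 in TC1. Serpinb9b stood at 15.6 ± 3.82 FPKM in RENCA, above every library of EMT6 (4.54 ± 1.31), the next model, and at 0.118 ± 0.0609 in MC38. Serpina3n, the secreted inhibitor, had isotype means between 2.66 ± 3.91 FPKM in LL2 and 23.9 ± 5.31 in RENCA, and no model was separated from its neighbour in the order.

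The comparison of muDX400 with isotype tumours asks what PD-1 blockade changed within each model. Of 99 gene and model pairs, 68 passed the filter (FPKM of at least 1 in at least 5 of the libraries fitted), and 5 were called at a Benjamini-Hochberg adjusted p under 0.05 in limma fits over all genes. All 5 were higher with muDX400, 4 of them in MC38 and 1 in RENCA. Differences are given on the log2(FPKM + 1) scale with their SE, which understates the change of low genes. The difference was positive in 61 of the 68 pairs and negative in 7. Pairs of the same model share their libraries, and the share of positive differences over all genes was not computed. This count is therefore not shown to be particular to the members.

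In MC38 tumours Serpina3f, Serpina3g, Serpinb9 and Serpinb6b rose with muDX400. Of the 6 members tested, 4 were called higher, beside 14.6% of all 12775 genes tested. Serpina3f had 37.1, 30.7, 28, 28 and 24.2 FPKM in muDX400 tumours, against 6.04, 5.92, 5.68, 10.5 and 2.47 FPKM in isotype tumours, a difference of 2.19 ± 0.25 (adjusted p = 0.000852). Its lowest muDX400 library was above its highest isotype library. Serpina3g, the cathepsin inhibitor, had 232, 169, 196, 172 and 147 FPKM with muDX400, against 103, 103, 87.8, 105 and 77.2 with isotype, a difference of 0.93 ± 0.13 (adjusted p = 0.00113). The arms again did not overlap, but the call was lost with a spread shared by the models (adjusted p = 0.134). Serpina3f made up 16.2% ± 1.37 of Serpina3g in muDX400 tumours and 6.26% ± 2.44 in isotype tumours (SD, n = 5 each), shares that did not overlap and were not tested.

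Of the granzyme inhibitors in MC38, Serpinb9 had 17.3, 18.9, 17.9, 16.3 and 12.2 FPKM in muDX400 tumours, against 9.03, 9.81, 7.27, 9.97 and 8.66 in isotype tumours, a difference of 0.81 ± 0.13 (adjusted p = 0.00157). Serpinb6b had 5.05, 7.67, 6.79, 6.9 and 4.23 FPKM with muDX400, against 2.87, 3.63, 2.74, 2.94 and 3.51 with isotype, a difference of 0.77 ± 0.15 (adjusted p = 0.00423). For both genes every muDX400 library was above every isotype library. Groups that did not overlap in this direction were found for 9.38% of all genes. Serpinb9b was under the filter, at 0.505, 0.953, 0.507, 0.387 and 0.372 FPKM with muDX400, against 0.186, 0.177, 0.0484, 0.077 and 0.103 with isotype.

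The other members tested in MC38 were not called. Serpina3h had 2.12, 0.857, 2.41, 1.36 and 1.44 FPKM in muDX400 tumours, against 1.84, 1.74, 0.984, 2.02 and 1.42 in isotype tumours (adjusted p = 0.989). Serpina3n had 13.8, 16.7, 18.1, 13.4 and 3.79 FPKM with muDX400, against 9.16, 10.4, 9.73, 5.68 and 11.7 with isotype, a difference of 0.34 ± 0.34 (adjusted p = 0.467). The fifth muDX400 library was below every isotype library but the other 4 were above all of them, and without it the adjusted p was 0.0127.

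In the same MC38 comparison all 9 granzyme and perforin genes tested rose. Prf1, which encodes perforin, differed by 2.77 ± 0.26 (adjusted p = 0.000611) and Gzmb, the protease inhibited by Serpinb9, by 2.77 ± 0.29 (adjusted p = 0.000852). The differences were 2.15 for Gzmk, 2.04 for Gzmf, 1.81 for Gzmd, 1.63 for Gzmg, 1.61 for Gzmc, 1.57 for Gzme and 1.01 for Gzma, the protease inhibited by Serpinb6b. Of the lysosomal cathepsins, targets of Serpina3g among them, 8 of 9 rose, led by Ctsk (1.91), Ctss (1.67) and Ctsb (1.32). Of the interferon-gamma pathway list 11 of 14 rose, with Cd274 (PD-L1) at 2.05 ± 0.25 (adjusted p = 0.00093), Ifng at 2.02 ± 0.23 (adjusted p = 0.000852) and Ciita, the activator of MHC class II genes, at 1.99 ± 0.22 (adjusted p = 0.000852). Of the interleukin 6 and NF-kappaB list 3 of 15 rose, Il6ra, Tnf and Stat3. The median difference was 0.79 over the 6 members tested and -0.060 over all genes. T cell markers summed to 34.9 to 144 FPKM in MC38 muDX400 tumours and 7.8 to 17.8 FPKM in isotype tumours, and macrophage and monocyte markers to 202 to 495 FPKM in muDX400 tumours and 124 to 152 FPKM in isotype tumours. All 6 T cell, all 5 macrophage and monocyte and all 5 endothelial markers rose in MC38, as did 4 of 5 adipocyte, 3 of 4 dendritic cell, 3 of 5 fibroblast and 2 of 3 mast cell markers tested. Adipocyte markers had a median difference of 2.39, against 2.37 for T cell markers, and summed to 43.4 to 944 FPKM in muDX400 tumours and 15.2 to 145 FPKM in isotype tumours. The part of these cells in the serpin differences was not tested.

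**Figure D3:**
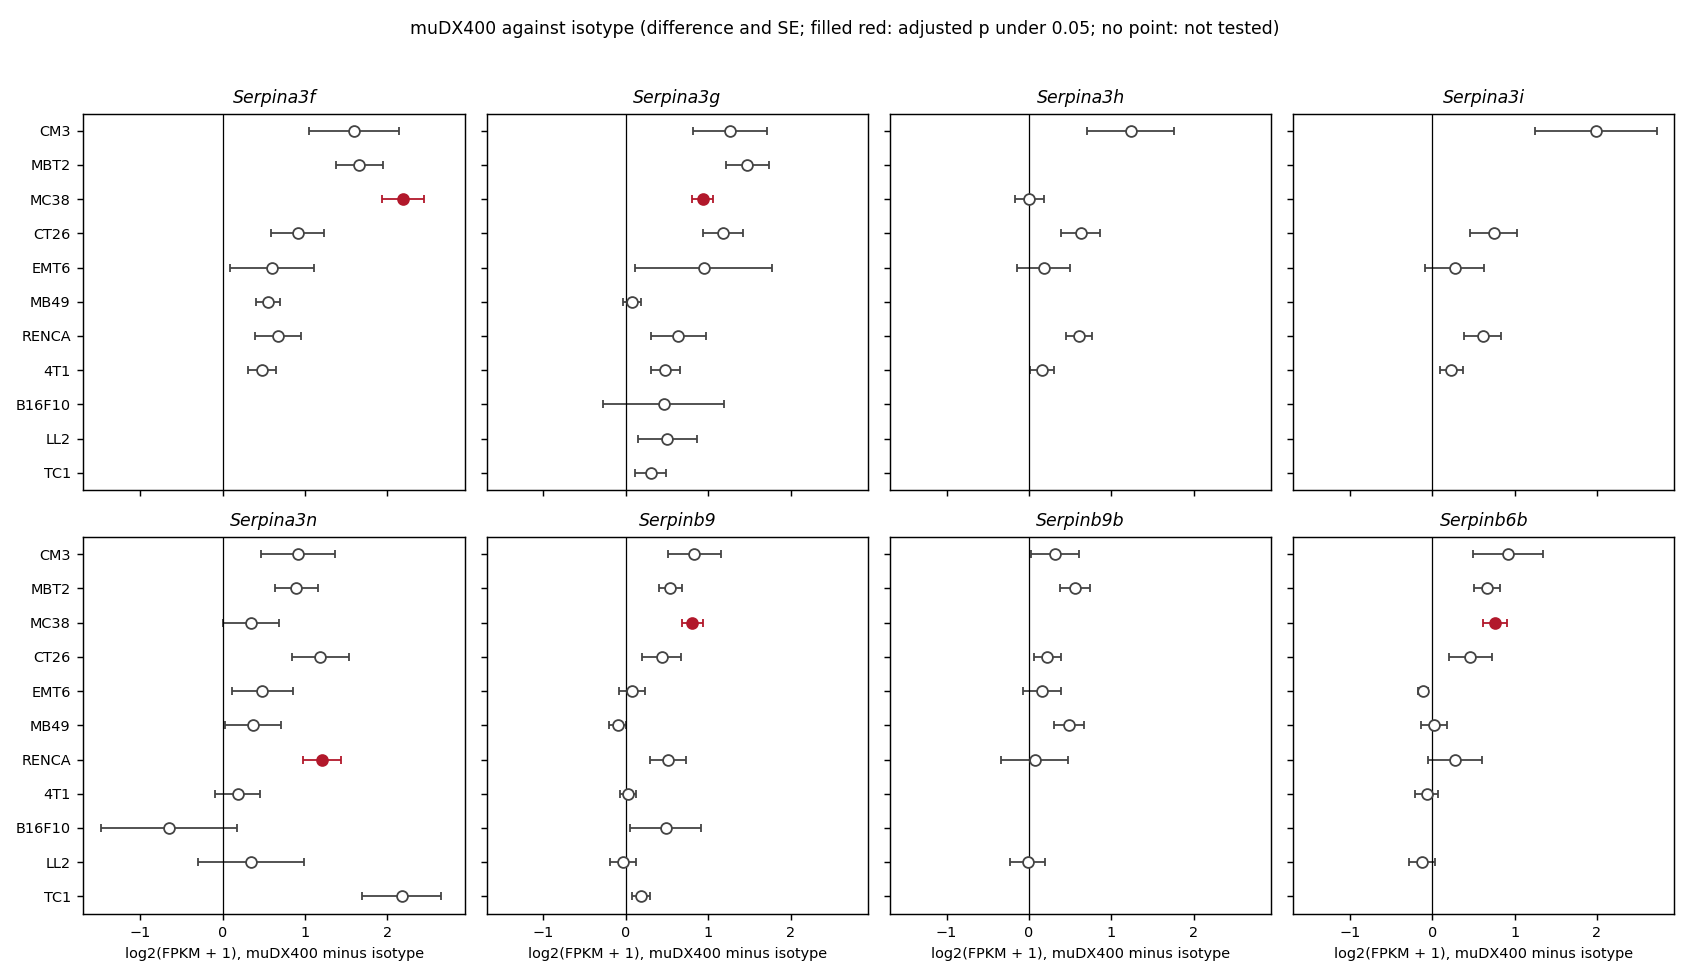
Difference between muDX400 and isotype tumours in log2(FPKM + 1), with its SE, for each member and model; filled red points have an adjusted p under 0.05 and a missing point was not tested. The 5 red points are Serpina3f, Serpina3g, Serpinb9 and Serpinb6b in MC38 and Serpina3n in RENCA.

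In RENCA tumours Serpina3n rose with muDX400. It had 58.5, 52.1, 36.8, 94.4 and 48.4 FPKM in muDX400 tumours, against 21.5, 18.2, 32.5, 22.9 and 24.4 in isotype tumours, a difference of 1.20 ± 0.23 (adjusted p = 0.0215). The arms did not overlap, and 1 of the 8 members tested was called higher, beside 2.28% of all genes. Without muDX400 replicate 1 or 2, or without isotype replicate 5, the call was lost, with adjusted p up to 0.0682. It was also lost with a spread shared by the models (adjusted p = 0.108), without the filter on low values (adjusted p = 0.0691) and with the replicate number as a block (adjusted p = 0.0621). Serpina3h had 9.76, 8.1, 11.9, 12.2 and 10.8 FPKM with muDX400, against 7.16, 5.49, 7.71, 5.88 and 6.62 with isotype, and was not called at 0.61 ± 0.16 (adjusted p = 0.0737), although its arms did not overlap either (3.58% of all genes in this direction). Serpina3i had 10.4, 12.3, 20.1, 10.8 and 13.6 FPKM with muDX400, against 11.5, 7.03, 9.54, 5.14 and 9.21 with isotype, and overlapped (adjusted p = 0.233). The other 5 members were not called in RENCA, with differences of 0.67 for Serpina3f, 0.64 for Serpina3g, 0.51 for Serpinb9, 0.28 for Serpinb6b and 0.067 for Serpinb9b.

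Beside Serpina3n in RENCA, 5 of 16 genes of the interleukin 6 and NF-kappaB list rose, with Il11 at 4.03 ± 0.59 (adjusted p = 0.00822), the acute phase gene Saa3 at 2.75 ± 0.24 (adjusted p = 0.0011) and Lif at 1.6 ± 0.17 (adjusted p = 0.00318). Of the interferon-gamma list 2 of 14 rose, Cd274 (1.08) and Gbp2 (0.73), and of 9 granzyme and perforin genes tested with limma 0 were called. Of the neutrophil markers 2 of 5 rose, S100a8 (1.98) and Csf3r (1.69). The neutrophil list summed to 80.9 to 351 FPKM in muDX400 tumours and 27 to 91 FPKM in isotype tumours. Of the endothelial markers 3 of 5 rose, and they summed to 74 to 142 FPKM in muDX400 tumours and 39.1 to 56.8 FPKM in isotype tumours, which did not overlap. All 5 fibroblast markers had positive differences with a median of 1.11, and 0 of them were called in limma. The part of these cells in the Serpina3n difference was not tested. Of the other serpins Serpine2 (1.81) and Serping1, the C1 inhibitor (1.32), rose in RENCA. In the other 9 models 0 of the 54 pairs tested with limma were called, and 21 of them had an unadjusted p under 0.05. The share of all genes under an unadjusted p of 0.05 was not computed in any comparison. Counts of members under it, here and below, are therefore not shown to be particular to the members.

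In MBT2 tumours 0 of 6 members were called, as were 0% of all genes. All 6 had an unadjusted p under 0.05, a share not computed for all genes. The smallest adjusted p in any model without a call was 0.0510, in MBT2. Serpina3f had 17.4, 17.2, 4.98, 13.2 and 14.4 FPKM in muDX400 tumours, against 2.04, 4.24, 4.02, 3.21 and 3.13 in isotype tumours, a difference of 1.66 ± 0.28 (adjusted p = 0.051). Serpina3g had 123, 134, 42.5, 109 and 94.3 FPKM with muDX400, against 31.4, 37.2, 35.9, 35.5 and 26.9 with isotype, a difference of 1.47 ± 0.26 (adjusted p = 0.051). Neither gene's arms overlapped, and for Serpina3f muDX400 replicate 3 was far below the other 4. Groups that did not overlap in this direction were found for 2.77% of all genes.

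The clade B members in MBT2 overlapped between arms. Serpinb6b had 25.6, 30.2, 16.8, 29.2 and 19.5 FPKM in muDX400 tumours, against 14.9, 17.8, 13.7, 14.1 and 12.6 in isotype tumours, a difference of 0.67 ± 0.15 (adjusted p = 0.051). Serpinb9 had 32.1, 34.3, 19.4, 30.9 and 22.6 FPKM with muDX400, against 18.9, 19.2, 16.6, 17.3 and 20.4 with isotype, a difference of 0.54 ± 0.14 (adjusted p = 0.0558). The same muDX400 replicate 3 was the lowest of its arm for both, and without it all 6 members tested in MBT2 were called, with adjusted p between 0.000296 (Serpina3g) and 0.0499 (Serpina3n). Without muDX400 replicate 5 Serpina3f, Serpina3g, Serpinb6b and Serpinb9 were called too. The share of all genes called was not computed for either fit, so these counts are not shown to be particular to the members. T cell markers summed to 53.8 to 166 FPKM in muDX400 tumours and 36.4 to 77.9 in isotype tumours. The median difference was 0.84 for T cell, 0.81 for dendritic cell and 0.68 for neutrophil markers, with none called, and their part in these differences was not tested.

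In CM3 tumours 0 of 8 members were called, as were 0% of all genes. An unadjusted p under 0.05 was found for 5 members, a share not computed for all genes. Serpina3i had 17.2, 15.3, 13.7, 17.2 and 17.6 FPKM in muDX400 tumours, against 6.96, 0.182, 0, 19.5 and 6.74 in isotype tumours, a difference of 1.99 ± 0.74 (adjusted p = 0.179). Serpina3g had 369, 413, 369, 329.8 and 341 FPKM with muDX400, against 149.7, 141, 45.8, 422 and 185 with isotype, a difference of 1.27 ± 0.45 (adjusted p = 0.179). Serpina3f had 19, 20.9, 17.6, 16.6 and 18.5 FPKM with muDX400, against 7.7, 2.32, 0.86, 21.2 and 8.27 with isotype, a difference of 1.6 ± 0.55 (adjusted p = 0.179). The other 5 differences were 1.23 for Serpina3h, 0.91 for Serpina3n, 0.92 for Serpinb6b, 0.83 for Serpinb9 and 0.32 for Serpinb9b. For all 8 members tested isotype replicate 4 was above every muDX400 library and the other 4 isotype libraries were below them all. That library also held the highest macrophage and monocyte sum of its arm, 506.2 FPKM, and the highest Gzmb, 37.4 FPKM. Without it all 8 members tested in CM3 were called, with adjusted p between 0.00374 (Serpina3n) and 0.0274 (Serpinb9b). The share of all genes called without it was not computed, so this count is not shown to be particular to the members.

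In CT26 tumours 0 of 8 members were called, beside 0.339% of all genes. An unadjusted p under 0.05 was found for 5 members, a share not computed for all genes. Serpina3g had 102, 55.4, 107, 50.1 and 55.7 FPKM in muDX400 tumours, against 23.1, 45.7, 27.6, 35.6 and 24.8 in isotype tumours, a difference of 1.18 ± 0.24 (adjusted p = 0.0683). Its arms did not overlap, as was so for 2.58% of all genes in this direction. The cathepsins Ctss (0.60) and Ctsb (0.34) rose in CT26, 2 of the 9 in the list, and 0 of 14 interferon-gamma genes were called in limma, with a median difference of 0.72. Serpina3n differed by 1.19 ± 0.35 (adjusted p = 0.138) and Serpina3f by 0.91 ± 0.32 (adjusted p = 0.174), neither called.

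In the Resistant model TC1 0 of 3 members tested were called, beside 0.0802% of all genes, and 1 had an unadjusted p under 0.05. That was Serpina3n, with 3.33, 15.3, 26.7, 13.5 and 37.5 FPKM in muDX400 tumours, against 2.69, 1.39, 3.65, 1.44 and 4.84 in isotype tumours, a difference of 2.17 ± 0.48 (adjusted p = 0.144). Replicate 1 of the muDX400 arm lay within the isotype range and the other 4 lay above it; without replicate 1 the adjusted p was 0.0101. In B16F10 Serpina3n had 4.17, 0.573, 7.3, 4.39 and 11.9 FPKM with muDX400, against 20.9, 14.4, 3.36, 0.218 and 23.8 with isotype, a difference of -0.65 ± 0.83 (adjusted p = 0.84). Libraries of both B16F10 arms ranged widely and overlapped. In 4T1, B16F10, EMT6, LL2 and MB49, where 0% of all genes were called, the lowest adjusted p of a member was 0.289, for Serpina3f in MB49, and 4 pairs had an unadjusted p under 0.05, 2 in 4T1 and 2 in MB49.

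Averaged over the 11 models, with each model's effect weighted alike and 1 spread shared by the 110 libraries, all 8 members that passed the filter rose, beside 14.5% of all 16187 genes tested. The mean difference was 0.86 ± 0.11 (adjusted p = 9.07e-09) for Serpina3f, 0.75 ± 0.14 (adjusted p = 3.38e-05) for Serpina3g and 0.68 ± 0.16 (adjusted p = 0.000687) for Serpina3n. It was 0.41 ± 0.096 (adjusted p = 0.000725) for Serpina3i and 0.26 ± 0.074 (adjusted p = 0.00594) for Serpina3h. Of the granzyme inhibitors, Serpinb9 differed by 0.34 ± 0.072 (adjusted p = 0.000154), Serpinb6b by 0.28 ± 0.076 (adjusted p = 0.00298) and Serpinb9b by 0.18 ± 0.070 (adjusted p = 0.0482). The Serpinb9b call was lost when CM3, CT26, EMT6, MB49, MBT2 or MC38 was left out, with adjusted p up to 0.185, and also without the filter (0.0936). The test refers to these 11 models only: with the model as the replicate 0 of the 8 were called (adjusted p between 0.251 and 0.297).

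Among other serpins the mean effect was called higher for Serpina3c (0.30) of the Serpina3 genes, for 0 of 6 other Serpinb6 and Serpinb9 genes, for 3 of 9 other clade A and B serpins (Serpinb1a, 0.29, Serpinb1b, 0.16, and Serpina1c, 0.13) and for Serping1 (0.89) among serpins of other clades. Of the protease lists 3 of 9 granzyme and perforin genes rose, Gzmb (0.61), Gzmk (0.58) and Prf1 (0.45), and so did all 9 cathepsins. Of the interferon-gamma pathway 11 of 14 rose, led by Cxcl9 (0.90), Cd274 (0.83) and Gbp2 (0.82), and of the interleukin 6 and NF-kappaB list 8 of 16, led by Saa3 (1.08). Markers of most cell types on the lists rose in the same fit: all 6 T cell, 5 adipocyte, 5 endothelial, 5 neutrophil and 4 mast cell markers tested, 4 of 5 each for macrophages and monocytes, dendritic cells and fibroblasts, and 3 of 4 for NK cells. The median was highest for adipocyte markers (0.83), before T cell markers (0.66), and their part in the serpin differences was not tested.

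Whether the effect of muDX400 differed between models was tested with an F test over the 11 effects, which called 32.4% of all genes. It called 3 of the 8 members: Serpina3f (F = 3.59, adjusted p = 0.00410), Serpina3i (F = 3.24, adjusted p = 0.00828) and Serpina3h (F = 2.70, adjusted p = 0.0248). The Serpina3f call was lost without MC38 (adjusted p = 0.106), and those of Serpina3h (0.120) and Serpina3i (0.357) without CM3. With a pseudocount of 0.1 all 3 calls were lost (adjusted p = 0.224 for Serpina3f, 0.0986 for Serpina3h and 0.0639 for Serpina3i). The other 5 were not called, with adjusted p of 0.0717 for Serpinb6b, 0.114 for Serpina3n, 0.115 for Serpinb9, 0.460 for Serpinb9b and 0.655 for Serpina3g, but Serpinb6b was called without B16F10 or without RENCA (adjusted p down to 0.0278) and Serpinb9 without B16F10 (0.0149). So for Serpina3g, Serpinb9 and Serpinb6b the calls in MC38, and for Serpina3n the call in RENCA, are not shown to differ from the other models.

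Resistant models were scored 0, Partial models 1 and High models 2, with the model as the replicate. The trend of the muDX400 effect with class called 0 of 8 members in limma, as it did 0% of all 13658 genes, and 5 members had an unadjusted p under 0.05. The share of all genes under that unadjusted p was not computed for any class trend. The effect increased by 0.73 ± 0.17 per class step for Serpina3f, by 0.36 ± 0.10 for Serpinb6b and by 0.26 ± 0.070 for Serpinb9b, each with an adjusted p of 0.0888. For the level in isotype tumours the slope of Serpina3g was 1.82 ± 0.48 per step (unadjusted p = 0.00244, adjusted p = 0.990) and that of Serpina3f 0.95 ± 0.25 (unadjusted p = 0.00271, adjusted p = 0.990); these were the 2 of 8 members with an unadjusted p under 0.05, 0 were called in limma, and 0% of all genes were. For the level in baseline tumours the slope was 1.6 ± 0.46 for Serpina3g and 1.12 ± 0.27 for Serpina3f, again 2 of 8 members under 0.05 unadjusted, with 0 members and 0% of all genes called in limma.

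**Figure D4:**
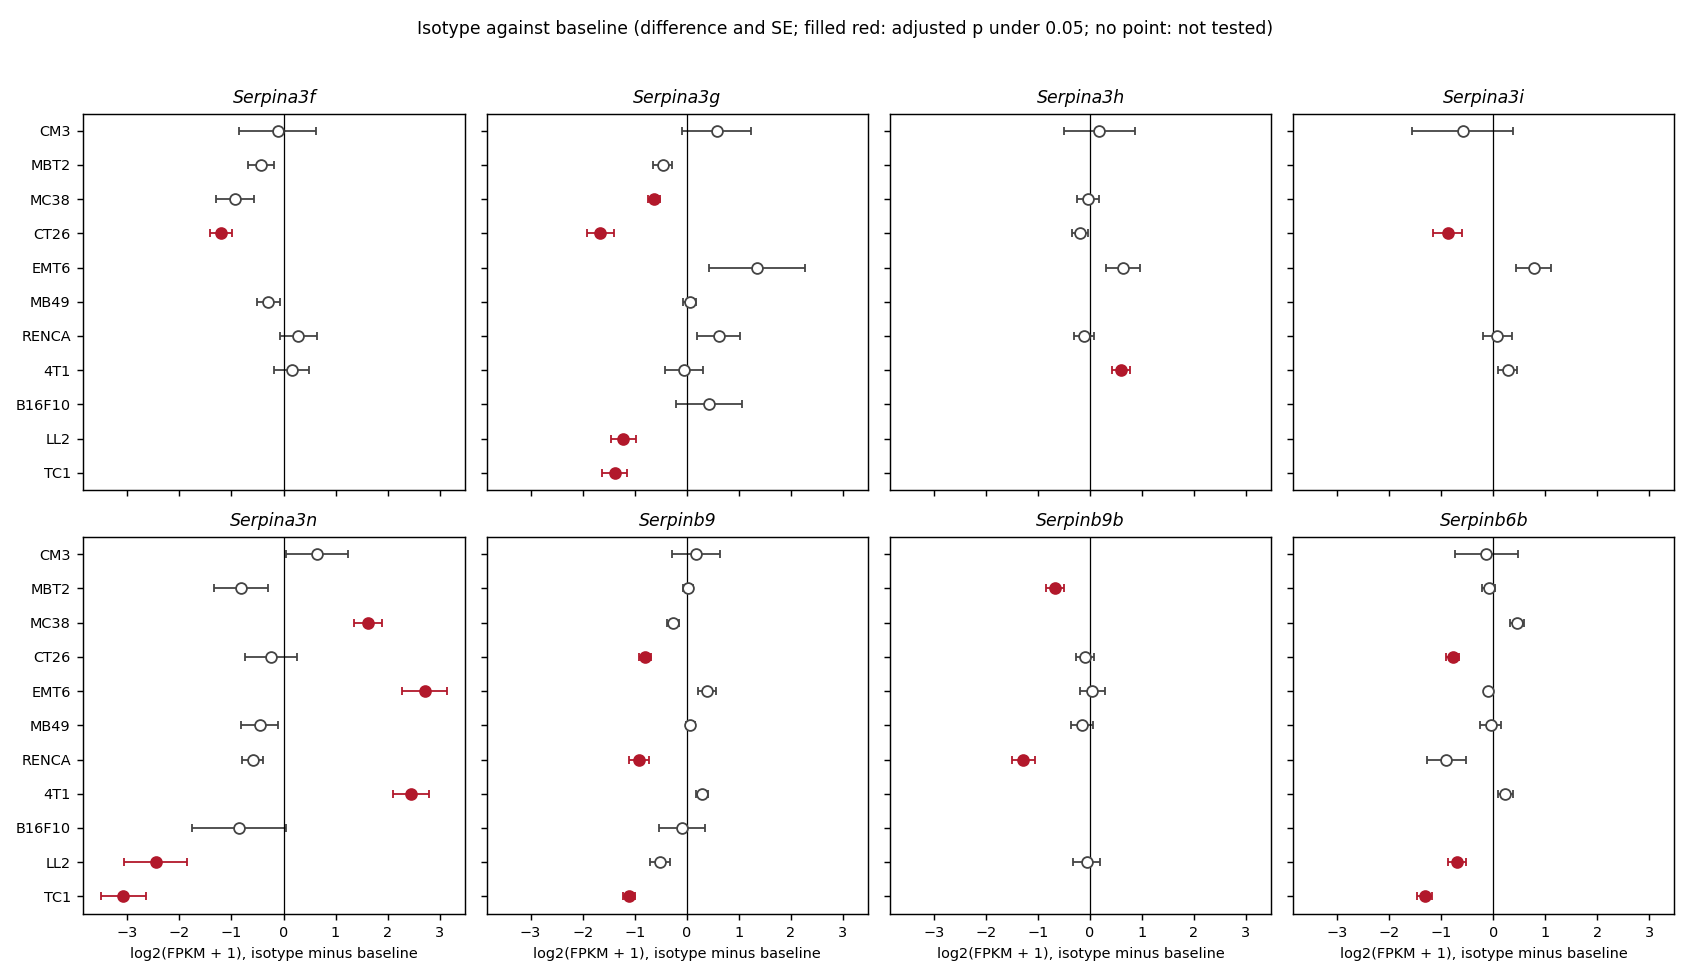
Difference between isotype tumours and untreated baseline tumours in log2(FPKM + 1), with its SE, for each member and model; filled red points have an adjusted p under 0.05 and a missing point was not tested. Serpina3n is higher in isotype tumours of 4T1, EMT6 and MC38 and lower in those of LL2 and TC1.

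Isotype tumours were set against the untreated baseline tumours of the same model. Of 67 pairs tested, 4 were called higher and 16 lower in isotype tumours, in 8 models. Outside B16F10 and RENCA these arms also differ in sample-number block, and the arms and the block cannot be told apart. Serpina3n moved in opposite directions in different models, while calls of Serpina3f, Serpina3g, Serpina3i and of the Serpinb members were all lower in isotype tumours. With a spread shared by the models the calls of Serpina3g were lost in LL2 (adjusted p = 0.159), MC38 (0.716) and TC1 (0.0670), and those of Serpinb6b in CT26 (0.0629) and LL2 (0.149). Those of Serpina3h in 4T1 (0.214), Serpina3i in CT26 (0.141), Serpina3n in MC38 (0.137) and Serpinb9b in MBT2 (0.0946) were lost too.

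In 4T1 isotype tumours Serpina3n and Serpina3h rose, 2 of 7 members tested, beside 14.3% of all genes called in either direction. Serpina3n had 14.1, 14.5, 24.6, 19.7 and 13.2 FPKM in isotype tumours, against 0.873, 5.59 and 1.76 in baseline tumours, a difference of 2.45 ± 0.35 (adjusted p = 0.00186). Serpina3h had 4.1, 4.39, 7.27, 6.0 and 4.71 FPKM in isotype tumours, against 2.54, 3.58 and 3.28 in baseline tumours, a difference of 0.59 ± 0.17 (adjusted p = 0.0447). Neither gene's arms overlapped (8.17% of all genes in this direction), but the Serpina3h call was lost in 6 of 8 fits that left out 1 library. All 5 neutrophil markers rose in 4T1, and their sum was 156 to 358 FPKM in isotype tumours and 30.7 to 50.2 in baseline tumours. All 5 adipocyte markers rose too, with a sum of 169.7 to 298 FPKM in isotype tumours and 11.3 to 32 in baseline tumours, and so did all 4 T cell markers tested. The median difference was 3.26 for adipocyte, 2.65 for neutrophil and 1.20 for T cell markers.

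In EMT6 Serpina3n had 9.43, 34.5, 23.4, 28.1 and 10.2 FPKM in isotype tumours, against 1.2, 2.99 and 2.07 in baseline tumours, a difference of 2.72 ± 0.44 (adjusted p = 0.00715). The arms did not overlap (8.23% of all genes in this direction), and 1 of 7 members was called, beside 10.3% of all genes called in either direction. With the replicate number as a block 5 of the members were called in EMT6. The share of all genes called in that fit was not computed, so this count is not shown to be particular to the members. Neutrophil markers summed to 120.5 to 226 FPKM in isotype tumours and 55.1 to 84.7 in baseline tumours of EMT6, where all 5 rose. All 5 adipocyte markers rose as well, with a sum of 95 to 996 FPKM in isotype tumours and 10.5 to 49.1 in baseline tumours and a median difference of 3.44, against 1.06 for neutrophil markers. The part of these cells in the Serpina3n differences of 4T1 and EMT6 was not tested. In MC38 Serpina3n had 9.16, 10.4, 9.73, 5.68 and 11.7 FPKM in isotype tumours, against 2.63, 1.14 and 3.51 in baseline tumours, a difference of 1.63 ± 0.27 (adjusted p = 0.0158), while Serpina3g fell, with 103, 103, 87.8, 105 and 77.2 FPKM in isotype tumours, against 152, 142 and 147 in baseline tumours, a difference of -0.63 ± 0.12 (adjusted p = 0.0244). Neither overlapped, as was so for 6.02% of all genes with higher and 8.13% with lower isotype values, and 2 of 6 members were called in MC38, beside 2.62% of all genes. Both calls were lost without isotype replicate 1 or without baseline replicate 1 or 2, and that of Serpina3g also without baseline replicate 3. Serpinb6b, not called in MC38, was also higher without overlap, at 2.74 to 3.63 FPKM in isotype tumours against 1.49 to 2.45 in baseline tumours.

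In TC1 isotype tumours all 4 members tested fell, beside 35.4% of all genes called in either direction. Serpina3n had 2.69, 1.39, 3.65, 1.44 and 4.84 FPKM in isotype tumours, against 63.2, 29.7 and 13 in baseline tumours, a difference of -3.08 ± 0.43 (adjusted p = 0.000449). Serpinb9 had 2.49, 2.0, 1.81, 1.95 and 2.42 FPKM in isotype tumours, against 6.77, 4.95 and 5.63 in baseline tumours, a difference of -1.11 ± 0.11 (adjusted p = 8.41e-05). Serpinb6b had 1.07, 0.45, 0.788, 0.528 and 1.0 FPKM in isotype tumours, against 3.86, 2.7 and 3.61 in baseline tumours, a difference of -1.32 ± 0.15 (adjusted p = 0.000131). It reached the filter through its 3 baseline libraries and the isotype libraries at 1.07 and 1.0 FPKM. Serpinb6b passed the filter in only 3 of the 8 fits that left out 1 library and was called in those 3 (adjusted p up to 0.000431). The fourth, Serpina3g, differed by -1.39 ± 0.23 (adjusted p = 0.00125), and no gene's arms overlapped (28.1% of all genes were lower without overlap). Macrophage and monocyte markers, of which all 5 fell, summed to 87.6 to 139 FPKM in TC1 isotype tumours and 228 to 257 in baseline tumours, and 10 of 13 interferon-gamma genes fell. All 5 endothelial markers fell too, with a sum of 33.6 to 42.5 FPKM in isotype tumours and 76 to 135 in baseline tumours, as did 3 of 5 fibroblast markers. The median difference was -1.24 for endothelial, -0.77 for macrophage and monocyte and -0.70 for fibroblast markers. Their part in the serpin differences was not tested.

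In LL2 isotype tumours Serpina3g, Serpina3n and Serpinb6b fell, 3 of 5 members tested, beside 25.4% of all genes called in either direction. Serpina3n had 0.40, 2.42, 0.483, 0.491 and 9.49 FPKM in isotype tumours, against 12, 12.4 and 15.1 in baseline tumours, a difference of -2.46 ± 0.61 (adjusted p = 0.0192). Serpina3g had 1.56, 3.88, 1.48, 1.62 and 1.54 FPKM in isotype tumours, against 7.41, 5.62 and 4.54 in baseline tumours, a difference of -1.22 ± 0.24 (adjusted p = 0.00732). Serpinb6b differed by -0.70 ± 0.18 (adjusted p = 0.023), a call that was lost without any 1 of the 3 baseline libraries. Serpina3n passed the filter in only 3 of the 8 fits that left out 1 library and was called in those 3 (adjusted p up to 0.0437). All 3 genes were lower in every isotype library than in every baseline library, as were 19.2% of all genes. Serpinb9, not called (adjusted p = 0.0799), was lower without overlap too. Of the cell type markers tested, 3 of 4 adipocyte, 2 of 5 fibroblast and 1 of 5 macrophage and monocyte markers fell in LL2. Adipocyte markers summed to 7.89 to 65.9 FPKM in isotype tumours and 93 to 179.5 in baseline tumours. T cell markers, which were under the filter, summed to 0.249 to 1.8 FPKM in isotype tumours and 11.8 to 16.9 in baseline tumours. The part of these cells in the serpin differences was not tested.

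In CT26 isotype tumours 5 of 8 members fell, beside 21.7% of all genes called in either direction. Serpina3g had 23.1, 45.7, 27.6, 35.6 and 24.8 FPKM in isotype tumours, against 66.5, 122 and 116 in baseline tumours, a difference of -1.66 ± 0.25 (adjusted p = 0.00201). Serpina3f differed by -1.20 ± 0.22 (adjusted p = 0.00441), Serpinb9 by -0.80 ± 0.12 (adjusted p = 0.00212) and Serpinb6b by -0.77 ± 0.13 (adjusted p = 0.00282). These 4 did not overlap between arms (21.4% of all genes in this direction). Serpina3i, which did, had 0.794, 3.15, 2.06, 2.09 and 0.958 FPKM in isotype tumours, against 4.54, 4.62 and 2.81 in baseline tumours and differed by -0.88 ± 0.27 (adjusted p = 0.0456), and it lost its call in 6 of 8 fits that left out 1 library. Of the interferon-gamma list 10 of 14 genes fell in the same comparison. So did 3 of 4 mast cell, 2 of 2 NK cell and 2 of 5 macrophage and monocyte markers tested, while 4 of 5 endothelial markers rose, and their part was not tested.

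RENCA, whose arms share a sample-number block, showed a fall of Serpinb9 and Serpinb9b in isotype tumours, 2 of 8 members, beside 7.63% of all genes called in either direction. Serpinb9b, the granzyme M inhibitor, had 8.87, 16.7, 18.3, 17.2 and 17 FPKM in isotype tumours, against 37.3, 40.5 and 37.4 in baseline tumours, a difference of -1.28 ± 0.22 (adjusted p = 0.0109). Serpinb9 had 11.2, 19, 16.8, 17.6 and 20.9 FPKM in isotype tumours, against 30.5, 35.2 and 32.2 in baseline tumours, a difference of -0.92 ± 0.19 (adjusted p = 0.0231). Neither overlapped (17.6% of all genes in this direction), but both calls were lost without any 1 of the 3 deeper baseline libraries, and that of Serpinb9 also without isotype replicate 3. Serpinb6b, not called (adjusted p = 0.187), was lower without overlap too. With muDX400 Serpinb9b ranged widely, at 16.5, 28.1, 35.6, 9.64 and 6.03 FPKM. In MBT2 Serpinb9b fell too, with 2.51, 1.99, 1.83, 1.82 and 2.98 FPKM in isotype tumours, against 4.19, 3.0 and 5.32 in baseline tumours, a difference of -0.67 ± 0.17 (adjusted p = 0.0242). It was 1 of 6 members, beside 22.5% of all genes called in either direction. Its arms did not overlap (16.8% of all genes in this direction), and the call was lost in 5 of 8 fits that left out 1 library. In B16F10, CM3 and MB49, with 0.343%, 0.232% and 1.47% of all genes called, 0 of 16 pairs were called in limma and 0 had an unadjusted p under 0.05.

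Further Serpinb9 genes lie in the same cluster and passed the filter in RENCA alone. Serpinb9c, Serpinb9d, Serpinb9e, Serpinb9f and Serpinb9g all fell in RENCA isotype tumours, 5 of the 6 genes tested from the list of other Serpinb6 and Serpinb9 genes. Serpinb9d averaged 23.8 ± 2.45 FPKM in isotype tumours (n = 5) and 84.9 ± 12.5 FPKM in baseline tumours (SD, n = 3), a difference of -1.79 ± 0.14 (adjusted p = 0.000376). The other differences were -1.85 for Serpinb9c, -1.6 for Serpinb9f, -1.39 for Serpinb9e and -1.35 for Serpinb9g. In muDX400 tumours Serpinb9d ranged from 0.0401 to 51.2 FPKM, and 0 of these 5 genes were called against isotype in limma, while 2 had an unadjusted p under 0.05. Serpinb9d differed by -2.20 ± 0.87 (adjusted p = 0.262). How far these paralogs share fragments was not tested.

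Levels of each inhibitor and its protease were set side by side in the same library, as a description with no test. In MC38, Gzmb averaged 37.6 ± 9.26 FPKM in muDX400 tumours and 4.90 ± 2.03 FPKM in isotype tumours (SD, n = 5 each), and the median ratio of Serpinb9 to Gzmb was 0.430 with muDX400 and 1.49 with isotype. Gzmb was above Serpinb9 in 5 of 5 muDX400 libraries and in 0 of 5 isotype libraries. In EMT6, B16F10 and LL2 Serpinb9 was above Gzmb in every library, with median ratios of 5.75 in EMT6, 3.34 in B16F10 and 9.69 in LL2 muDX400 tumours, and of 9.45, 5.21 and 12.9 in their isotype tumours. In B16F10 isotype tumours Gzmb was listed at 0 in 1 library, and the median ratio is over the other 4. In CM3, CT26, RENCA and TC1 Gzmb was above Serpinb9 in every muDX400 and every isotype library, with median ratios between 0.347 and 0.549. RENCA isotype tumours, at a median ratio of 0.402, stood apart from RENCA baseline tumours, at 1.30, where Gzmb was above Serpinb9 in 0 of 3 libraries. In 4T1, MB49 and MBT2 either gene could be the higher, with median ratios of 0.996, 1.44 and 0.942 in muDX400 tumours and 0.881, 1.14 and 0.672 in isotype tumours. The ratio of Serpinb6b to Gzma in MC38 was 1.44 with muDX400 and 1.78 with isotype. Transcript ratios do not measure protein or which cell holds it.

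**Figure D5:**
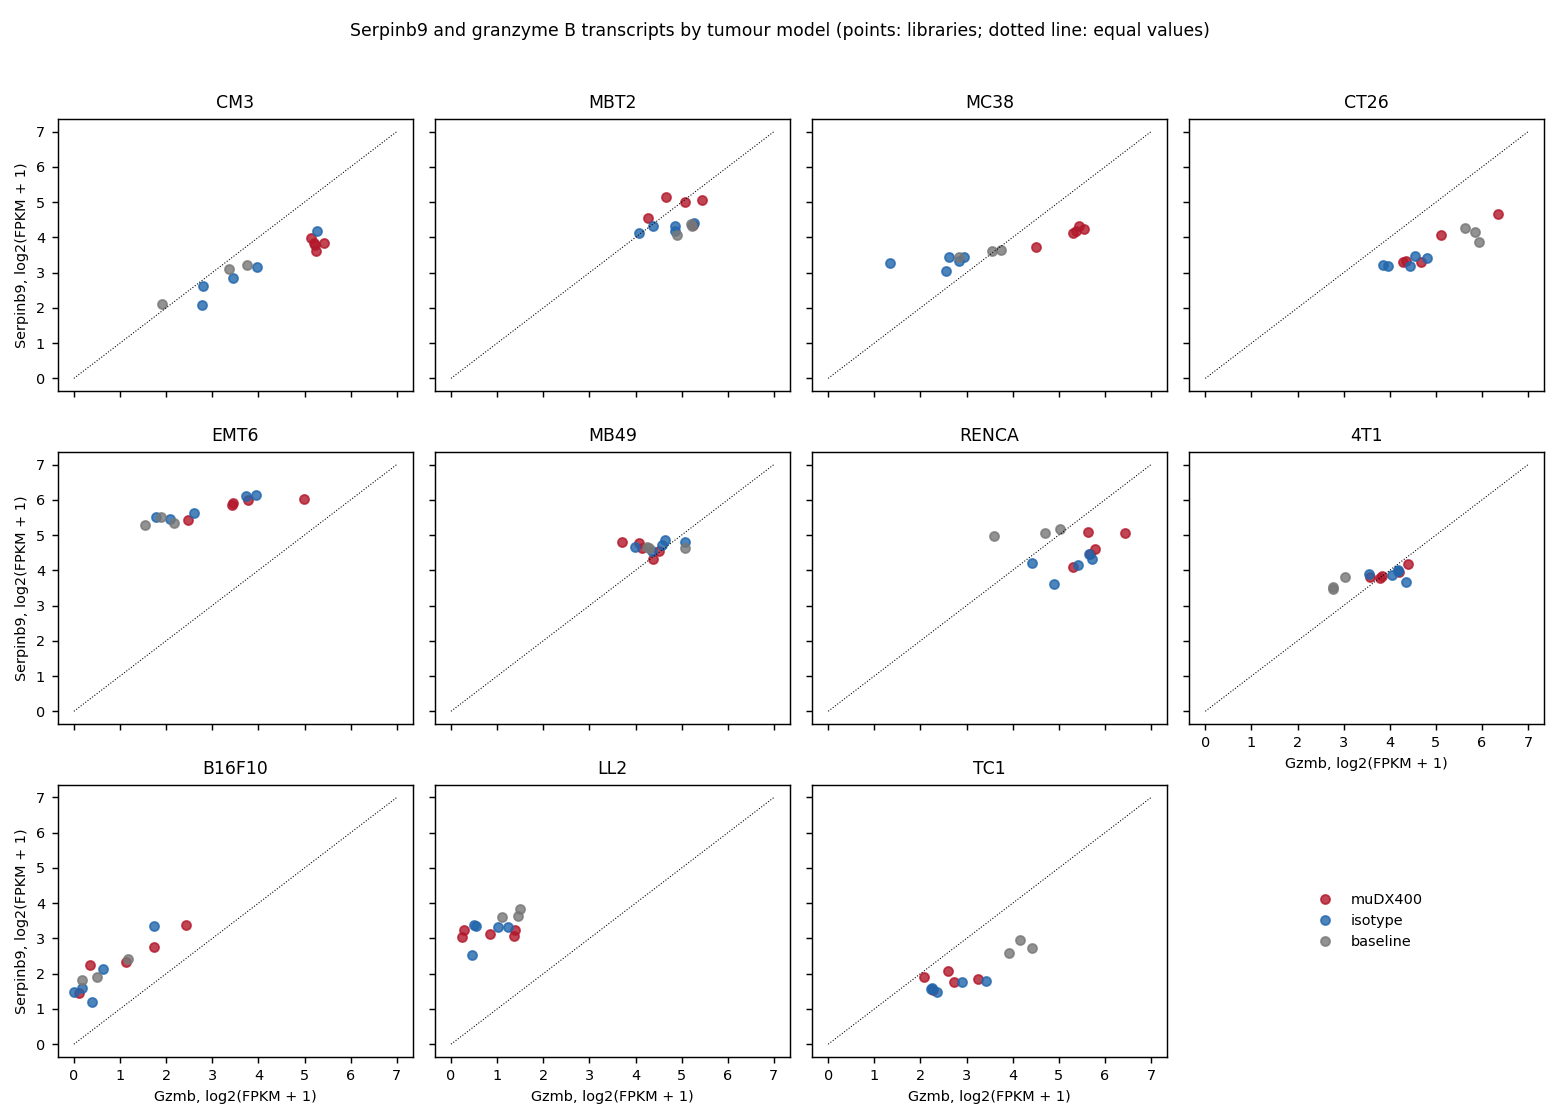
Serpinb9 against granzyme B (Gzmb) transcripts, both as log2(FPKM + 1), in each library (points) by tumour model and arm; the dotted line marks equal values. In MC38 the 5 muDX400 libraries lie on the Gzmb side of the line and the 5 isotype libraries on the Serpinb9 side, while EMT6 and LL2 libraries lie on the Serpinb9 side.

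Likeness to other genes was measured by Pearson r of log2(FPKM + 1) over all libraries after the mean of each of the 33 model and arm groups was subtracted, for 14603 genes. Libraries share depth and cell make-up, so r is a description. The 3 genes most like Serpina3f were Samhd1 (r = 0.879), Tapbpl (0.868) and Il18bp (0.865), and those most like Serpina3g were Slamf8 (0.924), Fcgr4 (0.911) and H2-DMb1 (0.902), the last a chain of the MHC class II loading complex. Those most like Serpinb9 were Parp9 (0.872), Gm12250 (0.844) and Samhd1 (0.836), and those most like Serpinb6b were Evi2a (0.787), Lacc1 (0.774) and Malt1 (0.764). Serpina3h was most like H2-T24 (0.806), Tbc1d9 (0.783) and Csf2rb2 (0.776), and Serpina3i like H2-T24 (0.864), Csf2rb2 (0.824) and Gm14548 (0.804). Serpina3n had a different set, Cd209f (0.816), Cpxm1 (0.790) and Loxl1 (0.784), and Serpinb9b had lower values, Acod1 (0.638), Clec4e (0.634) and Mirt1 (0.634). By Spearman's rho none of these genes stayed in the first 3 for Serpina3h, Serpina3i, Serpinb9b or Serpinb6b, and 2 did for Serpina3f, Serpina3g and Serpina3n and 1 for Serpinb9.

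Among the members themselves the pairs with the highest r were Serpina3f with Serpina3g (0.849), Serpina3h with Serpina3i (0.840) and Serpinb9 with Serpinb6b (0.800). The first pair shares 6.03% of its 50-base words (of Serpina3f) and the middle pair 15.8% (of Serpina3h). The median r with the 14 interferon-gamma genes was 0.777 for Serpina3f, 0.769 for Serpina3g, 0.686 for Serpinb9, 0.519 for Serpina3i, 0.510 for Serpinb6b, 0.470 for Serpina3h, 0.399 for Serpinb9b and 0.186 for Serpina3n. With the 16 genes of the interleukin 6 and NF-kappaB list the median r was between 0.204 (Serpina3n) and 0.341 (Serpinb6b); the gene of that list most like Serpina3n was Saa3 (r = 0.743). As a description, the windows of Serpina3f, Serpina3g and Serpina3i hold a GAS match, and those of Serpinb9, Serpinb6b, Serpinb9b and Serpina3n do not. Serpinb9, with an ISRE core but no GAS match, had a higher median with the interferon-gamma genes than Serpina3i, with a GAS match. Whether a match bears on these values was not tested.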

How the data were processed

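The authors deposited FPKM values (fragments per kilobase scaled to mapped fragments) for every library; per the labels' protocols, RNA was ribosome-depleted and sequenced as 50 base paired-end reads from stranded libraries. The aligner, quantifier, genome build and annotation were not given in the sources used here. The 9 members and all lists were chosen with earlier results of these data known. Python 3.11.15 (pandas 2.3.3, numpy 2.4.6) read the table, of which 0 columns were unused, and limma 3.58.1 in R 4.3.3 fitted log2(FPKM + 1) with an intensity trend, 2-sided, for genes at 1 FPKM or more in at least 5 libraries, with p-values adjusted by Benjamini-Hochberg over all genes tested. Class trends used the 11 models and genes with a mean of 1 FPKM in 3 models. Named genes are the members, the 3 genes most like each, up to 3 called genes per list and every called granzyme.

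Alternatives were a pseudocount of 0.1, no filter, median-ratio scaling, a shared spread, a replicate block and leaving out libraries or models. Same-numbered libraries were checked for pairing. Only in EMT6 isotype against baseline was every same-number correlation over 0.1 (0.181 to 0.344), and this check does not settle whether libraries were paired. On simulated data the fits of muDX400 against isotype recovered changes of 1 on the log2 scale in 51% of cases in RENCA (12664 genes), 56% in CM3 (12945 genes), 68% in B16F10 (11446 genes), 89% in MC38 (12775 genes) and 86% to 98% in the other 7 models, and changes of 2 in 91% (RENCA) to 100% of cases. How often a change of a member would be recovered was not tested. In the deposited values, differences of 2.17 (Serpina3n in TC1), 1.66 (Serpina3f in MBT2) and 1.18 (Serpina3g in CT26) were among those not called. Differences of 2.19 (Serpina3f in MC38) and 1.20 (Serpina3n in RENCA) were called. A member without a call is therefore not shown to be unchanged. Promoter windows and shared words used RefSeq GRCm38.p6 and GENCODE M21, and no window was used for Serpina3h and Serpina3m. Some genes of the lists are not reported here by name.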

Additional observations from a re-analysis of the deposited data

Results flagged for a closer look

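In 144 groups of 5 libraries, 14 held a library far from the other 4 by Dixon's test, which flags about 1 group in 20 by chance. Serpina3f was 2.70 FPKM in B16F10 isotype replicate 3 (others 0.046 to 0.487) and 4.98 in MBT2 muDX400 replicate 3 (others 13.2 to 17.4). Serpina3g was 3.88 FPKM in LL2 isotype replicate 2 (others 1.48 to 1.62) and 138.5 in MB49 isotype replicate 2 (others 93.8 to 103.5). Serpina3i was 3.32 FPKM in 4T1 muDX400 replicate 2 (others 4.02 to 4.29). Serpina3n was 9.52 FPKM in MB49 muDX400 replicate 4 (others 27.0 to 36.4) and 3.79 in MC38 muDX400 replicate 5 (others 13.4 to 18.1).

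Serpinb9 was 4.73 FPKM in LL2 isotype replicate 5 (others 9.0 to 9.45). Serpinb9b was 8.57 FPKM in CT26 muDX400 replicate 3 (others 4.24 to 5.04) and 8.87 in RENCA isotype replicate 1 (others 16.7 to 18.3). Serpinb6b was 20.1 FPKM in MB49 muDX400 replicate 4 (others 23.5 to 24.7), 1.43 in TC1 muDX400 replicate 1 (others 0.700 to 0.842), 29.9 in EMT6 isotype replicate 3 (others 25.3 to 26.1) and 13.9 in MB49 isotype replicate 2 (others 24.4 to 26.9). The muDX400 effect differed between the 11 models in limma's F test for Serpina3f (adjusted p = 0.00410), Serpina3i (adjusted p = 0.00828) and Serpina3h (adjusted p = 0.0248). All 3 calls were lost with a pseudocount of 0.1, that of Serpina3f also without MC38 and those of Serpina3h and Serpina3i without CM3.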

How the results depend on the processing

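In muDX400 against isotype, 5 members were called in all and 10 with a spread shared by the models, where CM3 had 6, MBT2 1 and RENCA 0. RENCA also had 0 without the filter and with the replicate block, and CT26 had 1 with median-ratio scaling. Leaving out 1 library gave 4 to 13 calls in all, 0 to 8 in CM3, 0 to 6 in MBT2, 4 to 5 in MC38, 0 to 1 in RENCA and TC1 and 0 in the other 6 models. In isotype against baseline, 20 were called in all and 12 with the shared spread, where 4T1 had 1, CT26 3, LL2 1, MBT2 0 and MC38 0. With the replicate block 4T1 had 1, CT26 3, EMT6 5, MBT2 2 and MC38 0, and MBT2 had 0 without the filter. Leaving out 1 library gave 18 to 22 calls in all, 1 to 2 in 4T1, 4 to 5 in CT26, 1 to 3 in EMT6 and LL2, 0 to 2 in MBT2 and MC38, 0 to 3 in RENCA and 3 to 4 in TC1. Shares of all genes called were computed for the main fits only, so counts from the alternatives have no such share beside them.

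The mean effect called 8 members, 7 to 8 when a model was left out and 0 with the model as the replicate. The difference between models called 3, 0 with a pseudocount of 0.1 and 1 to 5 when a model was left out. The class trend of the effect called 0 to 1 when a model was left out, and those of the levels 0. The block changed no other count by over 1.5 times. Whether same-numbered libraries belong together is not settled by their correlations. These reached 0.641 in MB49 muDX400 against isotype and 0.516 in MBT2 isotype against baseline. In EMT6 muDX400 against isotype they were all negative, between -0.512 and -0.0639. Of 2441 refits of single members, 2236 kept their direction and their side of the threshold, 83 lost and 45 gained a call, and 77 changed sign without ever being called. The cause of these changes was not tested. Values under 1 FPKM rest on few fragments, so Serpina3m, and Serpina3h and Serpina3i in MB49, MBT2, B16F10, LL2 and TC1, could not be compared between arms at this depth.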
